A study of Mus musculus with 17 samples.

Results

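Kidney tubule injury genes were followed through the kidney libraries of a single-cell RNA-Seq series on fibrosis in mice. The genes are Havcr1, Vcam1, Sox9, Lcn2, Clu, Krt20, Krt8 and Krt18, 8 of the 31053 genes listed in the count tables. They were chosen by name, with earlier results of these data known. The data were 9 kidney libraries of 17 in the series, each made from cells sorted for GFP and labelled PDGFRb+GFP+. All mice were 8 weeks old and carried PDGFRb-Cre with the Z/EG reporter, which turns on GFP where Cre has acted. The Wildtype mice (WT) had no further transgene, and the Sara Transgene mice (SARATg) also carried a human ZFYVE9 cDNA that Cre switches on in PDGFR-β cells and in leukocytes. Aristolochic acid (AA) was given into the peritoneum at 5 mg/kg 3 times a week for 3 weeks, and control mice received vehicle by the same route. There were 3 WT vehicle, 3 WT AA, 2 SARATg vehicle libraries and 1 SARATg AA library. The labels do not say whether libraries of a group came from separate animals, so a p-value measures the spread between these libraries.

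The tubule epithelium of the kidney is injured by toxins that its proximal segment takes up, and aristolochic acid, a plant compound that forms DNA adducts, is a known example. An injured proximal tubule cell loses transporters and turns on genes that are silent or low in the healthy segment. Havcr1 encodes KIM-1, a receptor for phosphatidylserine through which injured proximal tubule cells take up apoptotic debris. Vcam1 encodes an adhesion molecule for leukocyte integrins and marks proximal tubule cells that fail to recover, and Sox9 encodes a transcription factor of tubule progenitors that returns during repair. Lcn2 encodes NGAL, a secreted protein that binds iron-carrying siderophores and is best known from the distal nephron and from neutrophils, and Clu encodes clusterin, a secreted chaperone. Krt8 and Krt18 encode partner keratins of simple epithelium, and Krt20 encodes a keratin of gut and urinary tract epithelium that appears in injured tubules.

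The 9 libraries held 75562 cell barcodes, of which 66392 passed the filters, and between 28660151 and 137093834 unique molecular identifiers (UMIs) each. Marker genes placed 28604 of these cells (43.1%) in the tubule, and 23565 in the proximal tubule, 20990 of them with markers of the convoluted part and 2575 with markers of the straight S3 part. Leukocytes numbered 28966 cells. The gate for stromal cells, which would include pericytes, held 103 cells (0.155%), and Pdgfrb itself was at 0.202 to 2.71 counts per 1000000 UMIs (CPM), so the cell type on the label was nearly absent from these libraries. Barcodes found in another kidney library made up 1.66% to 2.13% of each library. Mouse Zfyve9, an indirect check on a human transgene, was at 89.5 and 92.1 CPM in the SARATg vehicle libraries. It was at 163 CPM in the library labelled WT AA 1 and at 10.3 to 31.5 CPM in the other 5 WT libraries, whereas the library labelled SARATg AA had 19.6 CPM. The levels in these 2 treated libraries go against their genotype labels, so genotype comparisons below are of labels. The libraries labelled WT vehicle 2 and SARATg AA were rich in Xist and held 3 Y-linked UMIs each, and the other 7 were of the male type.

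Havcr1 (ENSMUSG00000040405) lies on chromosome 11 of GRCm38 from 46735080 to 46779578 on the plus strand, and Krt20 (ENSMUSG00000035775) on the same chromosome from 99428403 to 99438150 on the minus strand. Sox9 is also on chromosome 11 (112782224 to 112787760, plus strand). Lcn2 is on chromosome 2 (32384633 to 32388252, minus strand), Vcam1 on chromosome 3 (116109949 to 116129688, minus strand, overlapped by the antisense gene Gm43109) and Clu on chromosome 14 (65968483 to 65981547, plus strand). Krt8 (101996698 to 102004482, minus strand, overlapped by the lincRNA Gm36026) and Krt18 (102028180 to 102032027, plus strand) are neighbours on chromosome 15. A processed pseudogene of Krt8, Krt8-ps, is annotated, and reads of near-identical sequence could be divided between the copies.

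The promoters of Havcr1 and Krt20 are shown because these members were found in proximal tubule cells, whereas no library had more than 3 UMIs of either in the thick ascending limb, distal convoluted tubule or intercalated cells (3 UMIs were 0.816 to 46.5 CPM there). RefSeq promoters of GRCm38.p6 (250 bases before the start site and 50 after it) were found for Havcr1, Krt20, Lcn2, Krt8 and Krt18. Each is printed 5′ to 3′ on the strand of the gene, with capitals for matches to the motifs searched on both strands. The Havcr1 window is the one of 3 annotated start sites that held a match, at chr11:46750918-46751217, and the Krt20 window is chr11:99438104-99438403.
Havcr1: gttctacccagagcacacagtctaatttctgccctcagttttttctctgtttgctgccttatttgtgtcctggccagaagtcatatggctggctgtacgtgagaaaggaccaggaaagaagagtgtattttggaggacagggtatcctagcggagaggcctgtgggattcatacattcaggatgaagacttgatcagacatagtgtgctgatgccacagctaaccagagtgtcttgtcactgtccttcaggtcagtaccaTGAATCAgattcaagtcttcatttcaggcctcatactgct
Krt20: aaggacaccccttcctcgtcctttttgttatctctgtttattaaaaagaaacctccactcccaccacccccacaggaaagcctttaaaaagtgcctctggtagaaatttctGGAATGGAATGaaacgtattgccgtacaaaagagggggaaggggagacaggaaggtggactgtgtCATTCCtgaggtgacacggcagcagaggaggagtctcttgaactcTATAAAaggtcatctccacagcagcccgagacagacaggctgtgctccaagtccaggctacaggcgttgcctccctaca
The capitals in Havcr1 are an AP-1 letter pattern (TGANTCA) that begins 10 bases after the start site. The capitals in Krt20 are a TATA box (TATAAA) that begins 29 bases before the start site and TEAD letters (GGAATG), which occur 3 times at -139, -134 and -74, the first pair sharing a base and the last on the opposite strand. Of 32851 promoters of the same length, 7.81% held the AP-1 pattern, 13.6% TATAAA and 14.7% GGAATG. The STAT pattern TTCNNNGAA, held by 8.3% of promoters, and the NF-kB pattern, held by 5.55%, were not in either window. The shares count single windows, whereas the Havcr1 window was picked from 3 for its match, so they do not measure its rarity. These matches describe letters in a window and were not tied to the levels below.

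In proximal tubule cells, Havcr1, Vcam1, Sox9, Clu and Krt20 were lower in WT vehicle libraries 1 and 2 than in each WT AA library, but the library labelled WT vehicle 3 lay within or above the WT AA range for each of the 8 members. Havcr1 was at 1.08, 3.48 and 60.5 CPM in WT vehicle libraries 1 to 3 and at 29.0, 17.9 and 19.7 CPM in WT AA libraries 1 to 3. It was at 1.39 and 5.39 CPM in the SARATg vehicle libraries and at 22.5 CPM in the library labelled SARATg AA. The highest level of all 9 was therefore in a library labelled vehicle, and without that library the treated and vehicle groups did not overlap.

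Vcam1 was at 0.228, 1.07 and 37.2 CPM in WT vehicle, at 45.9, 10.3 and 62.3 CPM in WT AA, at 1.14 and 2.67 CPM in SARATg vehicle and at 10.9 CPM in SARATg AA. Sox9 was at 0.137, 0 and 28.5 CPM in WT vehicle, where the 0 allows up to 0.0428 CPM (3 UMIs), and at 41.2, 8.64 and 17.9 CPM in WT AA. These genes, one for leukocyte adhesion and one for a repair transcription factor, had the same outlying vehicle library as Havcr1. In SARATg kidney Sox9 was at 0.316 and 7.75 CPM with vehicle and at 0.514 CPM with AA, so the treated library lay within the range of the vehicle pair.

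Clu, the secreted chaperone, was at 1.95, 1.07 and 27.8 CPM in WT vehicle, at 17.0, 10.3 and 13.9 CPM in WT AA, at 1.14 and 2.54 CPM in SARATg vehicle and at 10.8 CPM in SARATg AA. Lcn2, which is known better from distal segments, was at 0.0569, 2.25 and 6.94 CPM in WT vehicle and at 5.16, 0.896 and 10.7 CPM in WT AA, so its groups overlapped with and without WT vehicle 3. The SARATg values of Lcn2 were 0.316 and 8.52 CPM with vehicle and 0.308 CPM with AA.

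Among the keratins, Krt20 was at 0.0341, 0.2 and 16.2 CPM in WT vehicle and at 4.26, 0.978 and 2.52 CPM in WT AA. It was listed at 0 and 0.816 CPM in SARATg vehicle and at 1.64 CPM in SARATg AA. Krt8 was expressed throughout, at 94.5, 82.7 and 107 CPM in WT vehicle and 134, 78.1 and 133 CPM in WT AA, so it did not mark any library. Krt18, its partner, was low, with a range of 0.421 to 8.23 CPM over the 9 libraries.

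**Figure D1:**
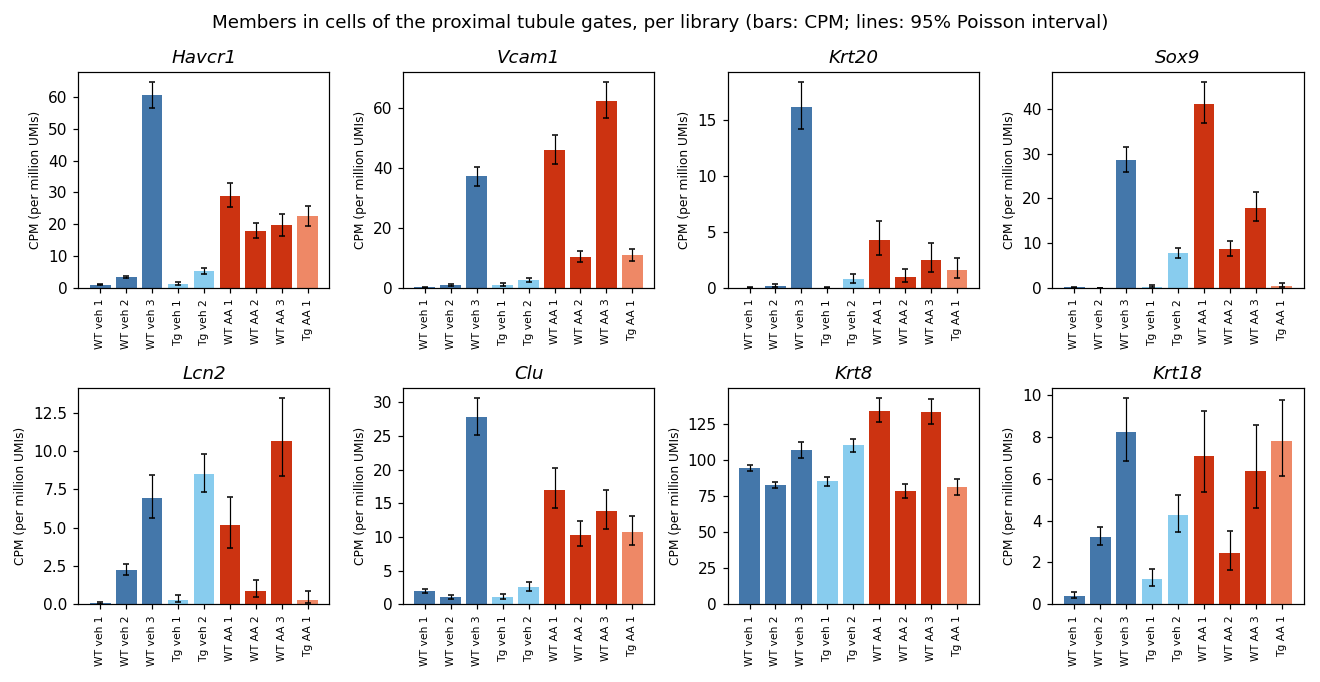
Level of each gene in proximal tubule cells of the 9 kidney libraries, in CPM (vertical axis), with 95% Poisson intervals that cover counting error only (veh, vehicle; AA, aristolochic acid; Tg, Sara Transgene). Havcr1, Krt20 and Clu are highest in WT vehicle 3 (60.5, 16.2 and 27.8 CPM), and Krt8 differs little between libraries.

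Other measures moved with these levels. Cdkn1a, the p53 target p21, in proximal tubule cells was at 20.5, 6.71 and 284 CPM in WT vehicle, 9.75 and 20.5 CPM in SARATg vehicle, 235, 179 and 278 CPM in WT AA and 272 CPM in SARATg AA. Leukocytes made up 7.85%, 11.6% and 68.4% of the cells in WT vehicle libraries 1 to 3 and 75.8%, 54.3% and 74.0% in WT AA libraries 1 to 3. In SARATg kidney they made up 37.7% and 44.1% with vehicle and 59.0% with AA. In both measures the library labelled WT vehicle 3 lay with or near the treated libraries, and its label was kept in every comparison. The part of these measures in the members' levels was not tested. T and NK cells, which should lack most of these genes, had at most 1.10 CPM of Havcr1 and 5.88 CPM of any member. Havcr1 reached 5.955 CPM in B cells (6 UMIs, SARATg AA) and 5.51 CPM in neutrophils (WT vehicle). In proximal tubule cells of WT vehicle 1 and 2 and both SARATg vehicle libraries Havcr1 lay below 5.51 CPM. The lowest proximal tubule values above are thus at a level found in leukocytes, where free RNA was not told apart from expression.

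With all 9 libraries, no member was called changed by AA in WT proximal tubule cells. The test was edgeR's quasi-likelihood test on the sum of UMIs in each library, in a fit of the 4 groups, with Benjamini-Hochberg adjustment over all 14188 genes tested and a threshold of 0.05. Of all genes in that fit 0 were called (0% of genes tested), 1516 had a raw p under 0.05, and 62 were called by DESeq2, which gave 6 of the 8 members an adjusted p (not Havcr1 or Clu) and called none of those 6. The log2 fold changes, AA over vehicle, were 1.42 (SE 1.48, adjusted p = 0.671) for Vcam1, 1.08 (SE 1.96, adjusted p = 0.818) for Sox9 and -0.12 (SE 1.22, adjusted p = 0.969) for Havcr1. Those of Lcn2, Clu, Krt18, Krt8 and Krt20 were 0.66, 0.26, 0.26, 0.085 and -1.27. The WT means of Havcr1 were 21.7 ± 33.6 CPM with vehicle and 22.2 ± 5.97 CPM with AA (SD, n = 3 each), so the spread of the vehicle group exceeded any difference.

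Leaving out the library labelled WT AA 1, whose Zfyve9 goes against its label, did not produce a call. The proximal tubule log2 fold changes were then 1.25 for Vcam1, 0.27 for Sox9, 0.064 for Clu, -0.37 for Havcr1 and -1.87 for Krt20, with adjusted p from 0.778 to 0.991 over the 8 genes, and 0% of the genes tested were called. Over the 6 segments fitted, 0 of 33 tests of a member in a segment passed.

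Leaving out the library labelled WT vehicle 3 changed the calls, and since that library stands out by these same genes the values are given as a description. Clu then rose by 2.96 (SE 0.482, adjusted p = 0.0311) and Vcam1 by 5.76 (SE 0.961, adjusted p = 0.0336) on the log2 scale in proximal tubule cells, where 302 of the genes tested (2.09%) were called. Havcr1, with 3.16 (SE 0.656, adjusted p = 0.0579), Sox9, with 7.95 (adjusted p = 0.0659), and Krt20, with 4.29 (adjusted p = 0.142), did not pass. Sox9 was at or near 0 in the vehicle libraries that remained, so its fitted value depends on the prior count. In raw levels, 5 of 8 members (Havcr1, Vcam1, Krt20, Clu and Sox9) then lay higher in every WT AA library than in both WT vehicle libraries, as did 25.8% of all genes tested. With all WT libraries 0 of 8 did, against 12.4% of all genes.

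**Figure D2:**
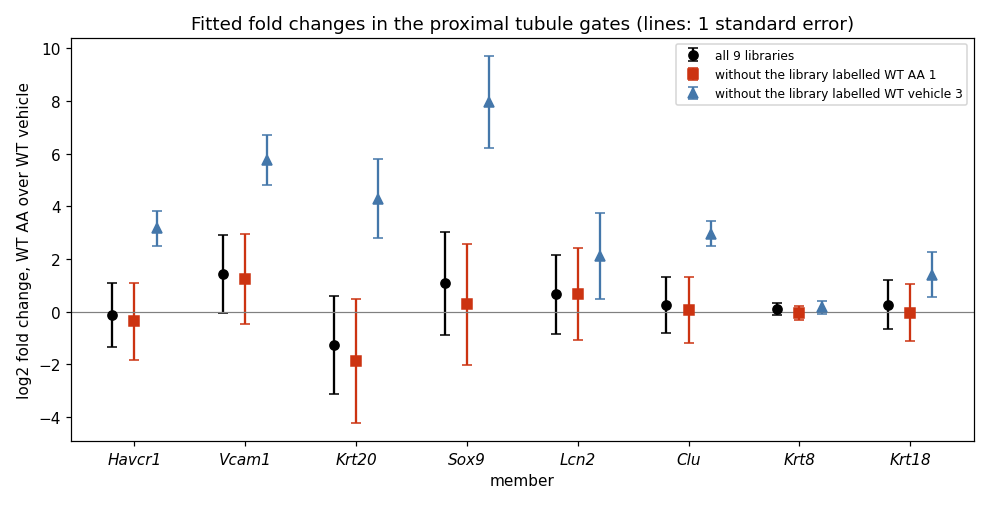
Log2 fold change of each gene in proximal tubule cells, WT AA over WT vehicle (horizontal axis, bars of 1 SE from edgeR), with all 9 libraries, without WT AA 1 and without WT vehicle 3. Havcr1 moves from -0.12 to 3.16 when WT vehicle 3 is left out and to -0.37 when WT AA 1 is left out.

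The share of proximal tubule cells with at least 1 UMI of a member was compared next. Each cell was thinned to 1000 UMIs, so that depth was equal, and between 613 and 7360 cells per library remained. Havcr1 was then found in 0.0815%, 0.170% and 3.11% of cells in WT vehicle and in 1.47%, 1.39% and 1.90% in WT AA. The SARATg shares were 0.138% and 0.239% with vehicle and 1.53% with AA. Before thinning, the WT shares of Havcr1 were 1.08%, 2.25% and 16.7% with vehicle and 12.9%, 6.96% and 6.71% with AA. The background share after thinning, in T and NK cells, was 0% in the vehicle libraries and up to 0.189%, in WT AA 3 (median depth 2508 to 4864 UMIs, against 6232 to 11350 UMIs in the proximal tubule). The shares of WT vehicle 1 and 2 and of SARATg vehicle 1 lay below that highest value but above the 0% of their own T and NK cells. In WT vehicle 2, 4 of 23 S3 cells (17.4%) were positive, and in SARATg vehicle 2, 2 of 106 (1.89%). Both shares lay above the highest in T and NK cells, but they rest on few positive cells and were not tested. The 23 cells of WT vehicle 2 held only 5 UMIs (11.4 CPM) of Slc7a13, the transporter that defines S3.

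The WT difference in the share of Havcr1 was 0.465 percentage points (exact two-sided permutation test over libraries, p = 0.6), and over both genotypes it was 0.824 points (exact permutation, p = 0.286). For Clu the thinned shares were 0.231%, 0.0426% and 1.01% in WT vehicle, 0.0920% and 0.0597% in SARATg vehicle, 1.47%, 1.14% and 1.36% in WT AA and 1.24% in SARATg AA. At this depth the treated libraries all lay above the vehicle libraries for Clu. Without thinning they did not, since WT vehicle 3 had 12.3%, above the 10.8%, 4.20% and 7.11% of WT AA and the 7.48% of SARATg AA, while the other 4 vehicle libraries had 0.921% to 2.19%. The thinned exact permutation p of Clu was 0.1 in WT, the smallest that 3 against 3 allow, and 0.0159 over both genotypes, the smallest that 4 against 5 allow, but 0.339 after adjustment over the 64 tests of members by class. None of the 56 WT tests or the 64 tests over both genotypes passed after adjustment. Vcam1 was found in 0.0136%, 0.0852% and 2.44% of cells in WT vehicle and 2.61%, 0.884% and 4.21% in WT AA, and Sox9 in 0%, 0% and 2.94% against 3.26%, 0.442% and 0.950%. Krt8 was found in 7.49% to 12.4% of cells in every library.

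**Figure D3:**
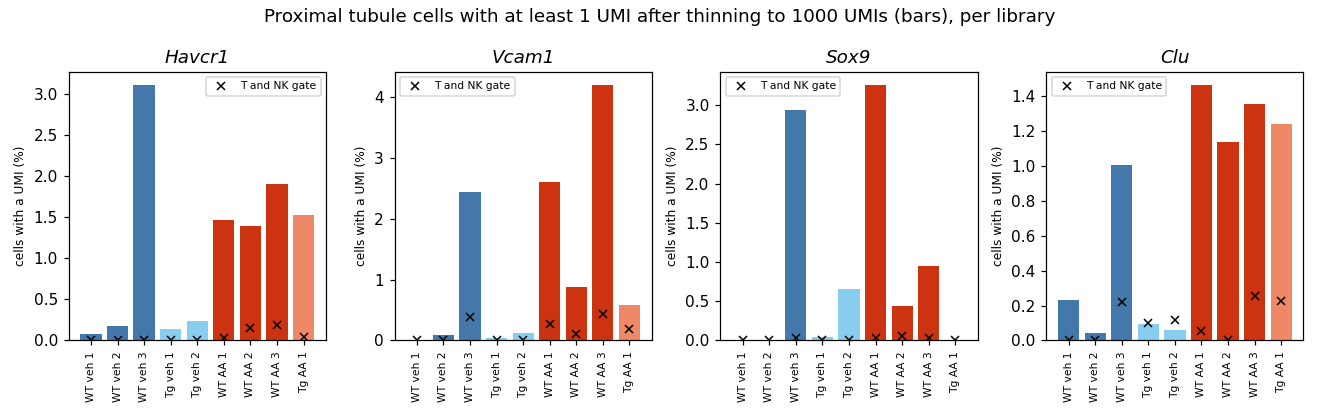
Percent of proximal tubule cells with at least 1 UMI of Havcr1, Vcam1, Sox9 and Clu after thinning to 1000 UMIs a cell, by library, with T and NK cells of the same library as crosses. WT vehicle 3 has 3.11% for Havcr1, above the 1.39% to 1.90% of the 4 AA libraries, whereas for Clu its 1.01% is below all 4 at this depth.

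The convoluted and S3 parts of the proximal tubule were compared within libraries, and no member passed that test. In S3 cells Havcr1 was at 1.06, 144 and 194 CPM in WT vehicle, 1.40 and 18.8 CPM in SARATg vehicle and 103, 112 and 77.2 CPM in WT AA, and in convoluted cells at 1.09, 2.60 and 13, at 1.39 and 4.49, and at 8.86, 6.66 and 16.2 CPM in the same order. It was thus higher in S3 cells in 7 of 8 libraries, by 2.56 ± 1.91 on the log2(CPM + 1) scale (SD, n = 8), and the libraries in which both parts were near 1 CPM were WT vehicle 1 and SARATg vehicle 1. The library labelled SARATg AA had no S3 cells by these markers and 22.5 CPM in cells of the convoluted gate. It and WT vehicle 2 are the pair rich in Xist, and over all proximal tubule cells they had 0.411 and 1.57 CPM of Slc7a13, the transporter that defines S3, against 44.1 to 649 CPM in the other 7. S3 cells may therefore lie in the convoluted gate of that pair, and the part of this in the levels was not tested.

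For Sox9 and Vcam1 the mean difference had the opposite sign. Sox9 was at 37.4 CPM in convoluted and 3.63 CPM in S3 cells of WT vehicle 3, and at 52.0, 9.58 and 18.9 against 1.21, 0.764 and 2.58 CPM in WT AA, where the S3 values are 2, 1 and 1 UMIs and 3 UMIs would be 1.81, 2.29 and 7.73 CPM, and it was higher in S3 cells in 0 of 8 libraries (mean difference -1.82 ± 1.62). Vcam1 was at 57.6, 11.2 and 65.5 CPM in convoluted cells of WT AA and 3.02, 2.29 and 10.3 CPM in S3 cells (mean difference over the 8 libraries -1.75 ± 1.63, higher in S3 in 2 of 8). Clu had the sign of Havcr1, at 5.58, 3.38 and 9.58 CPM in convoluted and 59.2, 68.8 and 85.0 CPM in S3 cells of WT AA (mean difference 1.60 ± 1.86, higher in 6 of 8).

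An exact two-sided sign-flip test over the 8 libraries, added after these levels were seen, gave p = 0.0234 for Havcr1, 0.0156 for Sox9, 0.0313 for Vcam1 and 0.0703 for Clu, where 0.00781 was the smallest possible, or 0.0156 for Sox9, which was at 0 in both parts of WT vehicle 2. Adjusted over the 8 members these were 0.0833, 0.0833, 0.0833 and 0.141, so no member passed. Krt8 differed by 0.040 ± 0.58. The S3 cells were not alike in all libraries: Slc34a1, a phosphate transporter of the convoluted part, was at 2018, 308 and 55.4 CPM in S3 cells of WT vehicle and 127, 183 and 131 CPM in those of WT AA, and WT vehicle 2 had 23 S3 cells with 11.4 CPM of Slc7a13 against 636 to 1245 CPM in the others. Without WT vehicle 2 the Havcr1 difference was 2.16 (adjusted exact p = 0.125). The part of the gate's makeup in these differences was not tested.

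**Figure D4:**
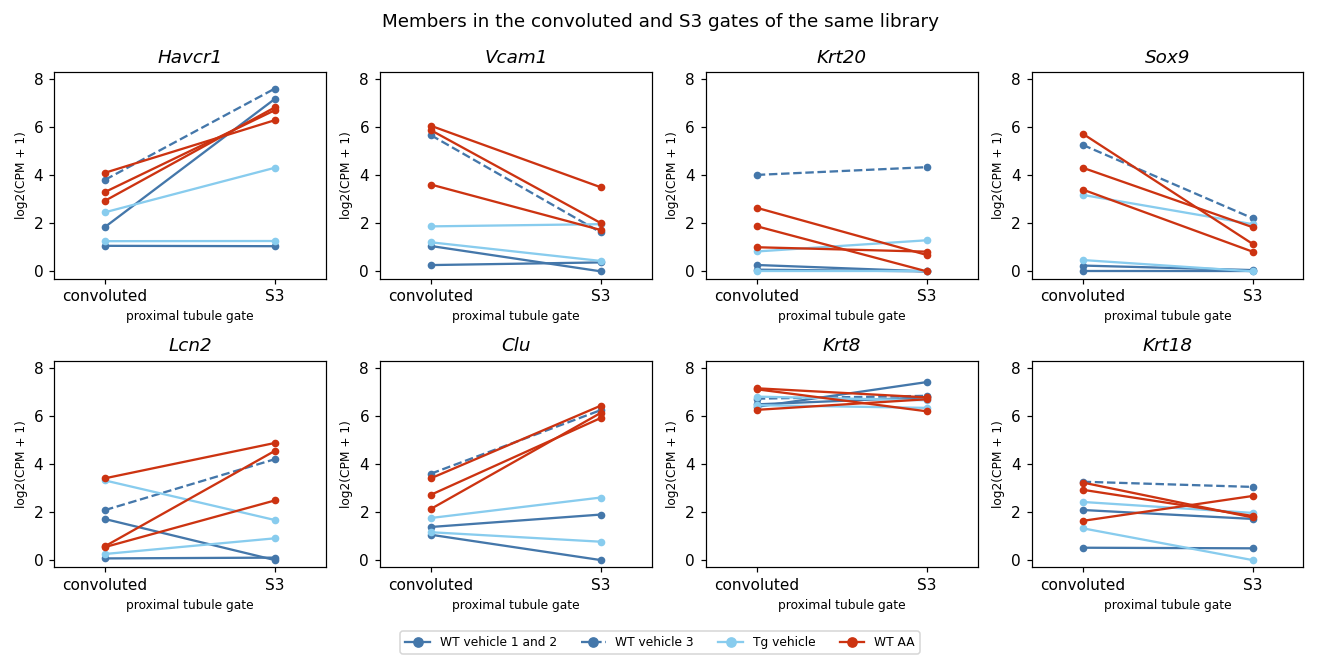
Level of each gene as log2(CPM + 1) in convoluted and S3 proximal tubule cells, with a line for each of the 8 libraries that had at least 10 cells of both. Havcr1 is higher in S3 cells in 7 of 8 libraries and Sox9 in 0 of 8.

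Epithelial cells that carried no single segment's markers, 2799 in all, had more Havcr1, Vcam1 and Krt20 than the proximal tubule as a whole in every treated library. This was also so for Vcam1 and Krt20 in each WT vehicle library, and for Havcr1 in each vehicle library but WT vehicle 1. For Krt20 in WT vehicle 1 the order was 0.0761 against 0.0341 CPM, both below the up to 0.951 CPM of T and NK cells. S3 cells alone had more Havcr1 than the cells of no one segment in each WT library. Their levels in WT AA were 103, 112 and 77.2 CPM. In the cells of no one segment Havcr1 was at 0.304, 6.69 and 133 CPM in WT vehicle, 1.42 and 18.4 CPM in SARATg vehicle, 49.0, 40.5 and 63.1 CPM in WT AA and 73.7 CPM in SARATg AA. Vcam1 was at 3.88, 17.2 and 224 CPM in WT vehicle and 326, 123 and 108 CPM in WT AA, and Krt20 at 0.0761, 2.62 and 106 CPM against 71.5, 23.0 and 24.4 CPM. The library labelled WT vehicle 3 was again within or above the treated range. The log2 fold changes of Havcr1, Vcam1 and Krt20 were 0.099, 1.11 and 0.093 (edgeR adjusted p = 0.990, 0.802 and 0.992), and of all genes tested there 0% were called. Cdkn1a in these cells was at 31.0, 36.7 and 507 CPM in WT vehicle, 269, 334 and 287 CPM in WT AA, 17.4 and 47.6 CPM in SARATg vehicle and 1362 CPM in SARATg AA. These cells also held 627 to 3937 CPM of Slc12a3 and 284 to 1589 CPM of Umod, the markers of the distal convoluted tubule and thick ascending limb, against at most 28.1 and 13.8 CPM in B cells.

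Lcn2 was higher in the thick ascending limb than in the proximal tubule in each of the 9 libraries. In WT vehicle 1 this order rests on 1 UMI in the limb (95% Poisson interval 0.0666 to 14.7 CPM), within the up to 4.59 CPM of T and NK cells. In the thick ascending limb, the segment that dilutes the urine, Lcn2 was at 2.63, 9.95 and 842 CPM in WT vehicle, 8.12 and 544 CPM in SARATg vehicle, 577, 87.7 and 572 CPM in WT AA and 484 CPM in SARATg AA. For Lcn2, SARATg vehicle 2 lay with the treated libraries. Clu in the same cells was at 31.6, 42.3 and 1178 CPM in WT vehicle and 10.8 and 22.3 CPM in SARATg vehicle. It was at 214, 132 and 420 CPM in WT AA and 166 CPM in SARATg AA, so there SARATg vehicle 2 was low. After thinning, 1 of 30 limb cells of WT vehicle 3 (3.33%) had Clu, against 5.48% and 4.46% in WT vehicle 1 and 2. The thinned shares were 0% and 1.60% in SARATg vehicle, 7.50%, 10.5% and 7.58% in WT AA and 8.20% in SARATg AA. Without thinning WT vehicle 3 had 53.3%, against 55.0%, 26.3% and 42.4% in WT AA and 9.09% to 17.4% in the other vehicle libraries. The share of WT vehicle 3 was thus not high at equal depth, and the spread of its UMIs over cells was not tested. Sox9 in the limb was at 5.26, 1.24 and 26.9 CPM in WT vehicle and 36.6, 17.5 and 23.8 CPM in WT AA. Havcr1 was listed at 0 there in 7 of 9 libraries, with a highest value of 4.46 CPM, and Krt20 at 0 in all 9.

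In the distal convoluted tubule Lcn2 was at 0, 1.35 and 65.4 CPM in WT vehicle and at 8.67, 38.2 and 638 CPM in WT AA. The 0 allows up to 6.08 CPM (3 UMIs), the 1.35 CPM is 1 UMI and the 8.67 CPM of WT AA 1 is 2 UMIs (95% Poisson interval 1.05 to 31.3 CPM), so WT AA 1 was not told apart from WT vehicle 1 and 2 at this depth. Clu there was high in every library (372 to 2061 CPM). Among the 5 members tested in that segment, Lcn2 had the largest log2 fold change, 4.69 (SE 1.45, edgeR adjusted p = 0.238), and 0.0191% of all genes tested were called. Intercalated cells, which secrete acid or base, had 68.6 to 511 CPM of Clu and 118 to 350 CPM of Krt18. Vcam1 was at 95.8 CPM in intercalated cells of the library labelled WT AA 1 and had at most 1 UMI in each of the other 8, where 3 UMIs were 0.816 to 16.4 CPM (log2 fold change 6.71, SE 1.70, edgeR adjusted p = 0.102, with 0.0903% of genes called). Its UMIs therefore came almost wholly from 1 library.

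Principal cells, which take up water through aquaporins, numbered 136, and only 6 libraries had at least 10, of which 1 was WT AA. Lcn2 was highest there among tubule segments, at 551 and 2004 CPM in WT vehicle 2 and 3, 369 and 1432 CPM in SARATg vehicle, 2887 CPM in WT AA 1 and 4513 CPM in SARATg AA. Clu ranged from 196 to 3921 CPM in the same libraries, with the highest value in WT vehicle 3. In urothelium, the lining of the pelvis, Krt18 was at 3109 to 3992 CPM, Krt8 at 1580 to 2239 CPM and Krt20 at 0 to 243 CPM in the 4 libraries with at least 10 cells. The thin limb gate, in which 4 of its 6 markers were raised, held 114 cells, and 5 libraries had at least 10 of them. In that gate Havcr1 was at 30.1 CPM in WT vehicle 3, 11.1 and 63.0 CPM in WT AA 1 and 3, 0 in SARATg vehicle 2, which allows up to 34.6 CPM (3 UMIs), and 40.6 CPM in SARATg AA, and Krt20 was found in WT vehicle 3 (60.3 CPM) and SARATg AA (48.2 CPM) alone among the 5.

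**Figure D5:**
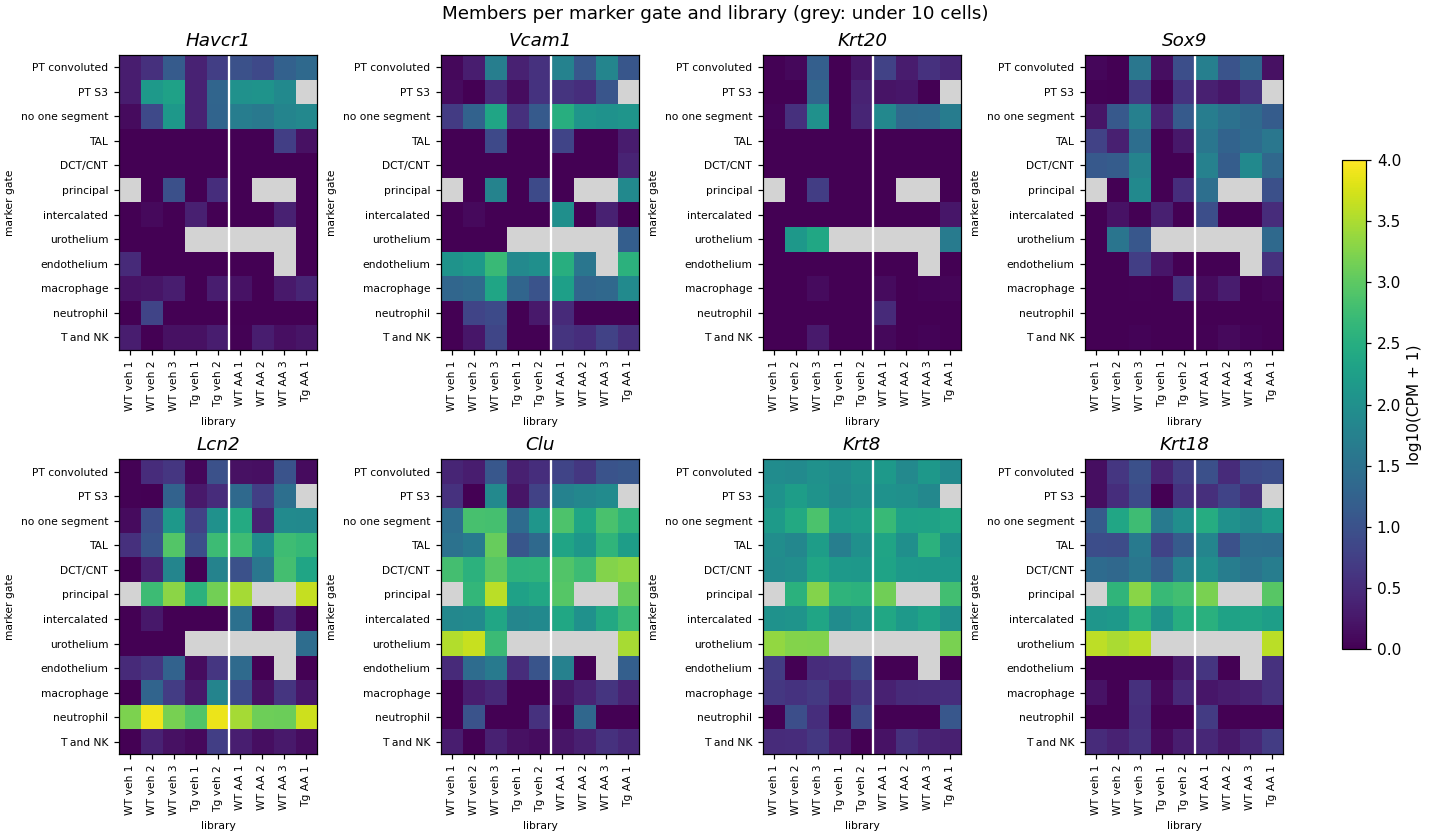
Level of each gene as log10(CPM + 1) (colour) in 12 cell gates (rows) and 9 libraries (columns), with grey where a library had fewer than 10 cells. Among the gates drawn, which leave out the thin limb, Havcr1 and Krt20 are seen in proximal tubule and in epithelial cells of no one segment, Krt20 also in urothelium. Lcn2 is seen in the thick ascending limb, distal convoluted tubule, principal cells, cells of no one segment and neutrophils. Vcam1 is also seen in endothelium, and in macrophages it reached 227 CPM in WT vehicle.

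Over the 6 segments with a fit (convoluted and S3 proximal tubule, cells of no one segment, thick ascending limb, distal convoluted tubule and intercalated cells), 35 tests of a member in a segment could be made in WT kidney. None passed, 29 of 35 log2 fold changes were above 0, and 7 had an unadjusted p under 0.05. The median over all genes lay between -0.044 (cells of no one segment) and -0.0092 (convoluted cells) in these segments. The share of all genes with an unadjusted p under 0.05 is not given for these segments. The 7 are therefore not read as a result about the members. DESeq2 called 0 of the 27 to which it gave an adjusted p. The library labelled WT vehicle 3 stands out by these same genes, so the values without it are again a description. Of the WT vehicle libraries left, WT vehicle 2 was rich in Xist, and all WT AA libraries were of the male type. With Y-linked libraries alone, chosen after seeing the data and keeping WT vehicle 3, edgeR passed 0 of 33. Without WT vehicle 3, 34 of 35 were above 0, where the median over all genes was -0.056 (S3 cells) to 0 (convoluted cells). Of the 35, 10 passed, all upward. Those were Clu (3.02), Lcn2 (6.03), Sox9 (3.48) and Krt8 (1.82) in the thick ascending limb, Lcn2 (7.59) and Clu (4.90) in S3 cells, Vcam1 in convoluted cells (5.91) and in cells of no one segment (4.07), Lcn2 in the distal convoluted tubule (7.92) and Clu in intercalated cells (1.55), all log2 with edgeR adjusted p from 0.00207 to 0.0483. The vehicle libraries that remained held 2 and 0 UMIs of Lcn2 in S3 cells and 0 and 1 in the distal convoluted tubule, so those fitted values also depend on the prior count. The genes called among all tested were then 1.58% in the limb, 0.831% in S3 cells, 3.05% in convoluted cells, 2.68% in cells of no one segment, 0.799% in the distal convoluted tubule and 1.93% in intercalated cells.

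Over both genotypes, 4 treated against 5 vehicle libraries with genotype as a term, 0 of 35 tests passed, 28 of 35 were above 0 and 10 had a raw p under 0.05. SARATg AA had no S3 cells, so the S3 tests among them used WT AA as the only treated libraries and repeat the WT comparison. DESeq2 gave 24 of the 35 an adjusted p and made 1 call, Clu in intercalated cells, where it called 2.73% of the genes fitted. The genes called by edgeR were 0% in the proximal tubule, 0.079% in the limb, 0.0762% in the distal convoluted tubule and 1.02% in intercalated cells. In proximal tubule cells the log2 fold changes were 1.65 (SE 1.16, edgeR adjusted p = 0.402) for Vcam1, 0.88 (SE 0.884, adjusted p = 0.558) for Clu and 0.70 (SE 1.05, adjusted p = 0.707) for Havcr1. DESeq2 put Krt20 (-0.33), Lcn2 (-0.28) and Krt8 (-0.15) below 0 there and the other members above 0. Without WT vehicle 3, again as a description, 11 of 35 passed. Of all genes, 10.1% were then called in the proximal tubule as a whole, 12.5% in convoluted cells and 0.831% in S3 cells. The shares were 9.25% in cells of no one segment, 0.972% in the limb, 0.333% in the distal convoluted tubule and 2.11% in intercalated cells. Within the SARATg labels the treated library was rich in Xist and both vehicle libraries were of the male type. AA and sex therefore cannot be told apart there or in the difference between genotype labels. In proximal tubule cells of the SARATg labels DESeq2 put Lcn2 (-4.20), Sox9 (-3.33) and Krt8 (-0.67) below 0 with AA and the other members above 0. The effect of AA within the SARATg labels, where 1 treated library was assumed to vary like the other groups, was 2.41 (SE 1.79, edgeR adjusted p = 0.564) for Havcr1 and 2.22 (SE 1.56, adjusted p = 0.547) for Clu, and 0% of genes were called. The difference of the effect between genotype labels was 2.53 (SE 2.17, edgeR adjusted p = 0.9998) for Havcr1 and -4.34 (SE 4.51, adjusted p = 0.9998) for Sox9, also with 0% called. No member passed by edgeR in either comparison (0 of 31 tests each), and the wide errors leave large differences in both directions within range. DESeq2 called Clu in intercalated cells for the SARATg labels (log2 fold change 2.90) and no member for the difference between labels.

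Members were then compared within proximal tubule cells by whether a cell had a Havcr1 UMI. After thinning, 5 libraries had at least 10 such cells (12 to 37). Clu was found in 0%, 2.70%, 9.09%, 7.14% and 6.25% of Havcr1-positive cells of WT vehicle 2, WT vehicle 3, WT AA 2, WT AA 3 and SARATg AA, and in 0.0427%, 0.955%, 1.02%, 1.24% and 1.17% of Havcr1-negative cells. The Havcr1-positive cells numbered 12, 37, 22, 14 and 16 in the same order, so each of their shares rests on very few Clu-positive cells. The share of Clu was higher in Havcr1-positive cells in 4 of 5 libraries, by 4.15 ± 3.26 percentage points on average (exact two-sided sign-flip permutation test, p = 0.125, adjusted 0.438, smallest possible 0.0625). Sox9 was found in none of the Havcr1-positive cells of the 5 libraries, of which the largest set was 37, and in 0% to 3.04% of the negative cells. Without thinning Sox9 was found in Havcr1-positive cells of 8 of 9 libraries, at 12.1% of 199 such cells in WT vehicle 3 against 12.6% of negative cells, and the mean difference was -0.158 points (exact permutation p = 0.984). With 5 libraries no member could pass. Without thinning, all 9 libraries could be used and Clu, Krt8, Lcn2, Vcam1 and Krt20 passed (for Clu 13.4 points, adjusted exact p = 0.0182), but depth is then not matched between the cells, and its part was not tested.

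Of a list of 36 other tubule injury and repair genes, 35 were tested in proximal tubule cells, and none rose or fell with AA in WT kidney. The list's median log2 fold change was 0.12, against -0.012 over all genes. In the same comparison 0 rose and 0 fell in each of the 6 segments. Over both genotypes 1 of 18 rose in the distal convoluted tubule, Dcdc2a by 2.65 (edgeR adjusted p = 0.0147), where 0.0762% of genes were called, and 0 in the other 5 segments. For S3 cells this again repeats the WT comparison. Without WT AA 1 the proximal tubule median was 0.016 with 0 called. Without WT vehicle 3 the median was 1.88, and 2 of 35 rose where 2.09% of all genes were called, Cp, which encodes the ferroxidase ceruloplasmin, by 5.67 (edgeR adjusted p = 0.0306) and Vim, which encodes vimentin, an intermediate filament of mesenchymal and dedifferentiated epithelial cells, by 2.85 (edgeR adjusted p = 0.0473). In the same fit 3 of 35 rose in convoluted cells (Cp, Vim and Gdf15, with 3.05% of all genes called), 3 of 36 in cells of no one segment (Cd44, Vim and Gdf15, 2.68%), 4 of 24 in the thick ascending limb (Gdf15, S100a6, Spp1 and Tnfrsf12a, 1.58%), 3 of 18 in the distal convoluted tubule (Dcdc2a, Gdf15 and Spp1, 0.799%) and 0 in S3 and intercalated cells. These genes were named after their values were seen, and the values without WT vehicle 3 are given as a description.

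Patterns over segments and libraries were compared as Pearson's r of log2(CPM + 10) over 59 values, each the level in 1 of 7 segments in 1 library, so that values of a library share its depth and animal. Among the members Krt8 and Krt18 (0.81), Vcam1 and Krt20 (0.79), Clu and Krt18 (0.69) and Lcn2 and Krt8 (0.68) were most alike, followed by Havcr1 and Krt20 (0.64), whereas Havcr1 and Lcn2 had r = -0.075. Among the 6094 genes with a mean of at least 20 CPM, the patterns most like Vcam1 were Sparc (0.833), Akap12 (0.807) and Lgals3bp (0.764), and those most like Clu were Tubb2b (0.864), Pycard (0.861) and Arl4c (0.855). Krt18 was most like Cav2 (0.916), Cldn4 (0.902) and Nav1 (0.896), and Krt8 most like Actb (0.847), S100a16 (0.828) and Clic1 (0.818). Havcr1, Sox9 and Krt20, with means of 19.2, 14.7 and 5.59 CPM, were below the level set for this comparison.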

How the data were processed

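The deposited tables list whole UMI counts for every gene and barcode. By the submitters' processing notes the authors used Cell Ranger 3.0.2 on mm10 (Seurat 2.3.4 is also named), and the counts carry no normalization. Members and lists were chosen with earlier results of these data known. A barcode was kept with 200 or more genes and no more than 50% mitochondrial UMIs, and the barcodes with the highest doublet scores (scanpy 1.11.5) were removed at 0.8% per 1000. Cells were gated on marker lists that held no member, with a scoring rule set after the files were seen. UMIs were summed over each gate with 10 or more cells in a library, given as CPM, and tested in R 4.3.3 by the two-sided quasi-likelihood F test of edgeR 4.0.16 (TMM factors, filterByExpr) with DESeq2 1.42.0 as the other tool, at an adjusted p of 0.05. Principal cells, with 1 WT AA library, are given as levels. UMIs are counted at the 3′ end, so CPM needs no scaling by length. Named genes were the 8 members, up to 4 list genes per direction past the threshold and the 3 most alike genes per member (those of Lcn2 are not reported here). In a simulation of the WT proximal tubule fit (14188 genes, 200 changed by a log2 fold of 2), 66% were recovered and 5.71% of calls were false. Shares used exact permutation tests over libraries (scipy 1.17.1). Intervals of single values are exact 95% Poisson intervals and cover counting error only. Alternatives covered the test, normalization, filters, gate, doublets, sex, replicate block and each library left out. The skin libraries were not used here.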

Additional observations from a re-analysis of the deposited data

How the results depend on the processing

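Most counts of calls turned on the library labelled WT vehicle 3, whose absence gave the highest WT values and those over both genotypes in the ranges that follow. Leaving out each library in turn gave 0 to 302 genes called in WT proximal tubule cells and 0 to 10 calls of a member in a segment. Over both genotypes the ranges were 0 to 1455 genes and 0 to 11 calls, for the SARATg labels 0 to 7 genes and 0 to 3 calls, and for the difference between genotype labels 0 to 5 genes. DESeq2 called 62, 964, 91 and 9 genes in these 4 comparisons, where edgeR called 0 in each, and 1 member in a segment over both genotypes (of 24 with an adjusted p, 2.56% of genes) and for the SARATg labels (of 26, 0.363%). Without a filter on low counts 5 of 45, 5 of 37 and 2 of 37 tests of members passed (WT, SARATg labels, difference), where 0.773%, 0.324% and 0.2% of the genes tested over the 6 segments were called. With the stricter gate 1 of 32, 1 of 28 and 2 of 28 passed (0.307%, 0.0386% and 0.0901% of genes), the last pair 1 up and 1 down, and with at most 20% mitochondrial UMIs 1 of 35 in WT (0.12% of genes). Same-numbered WT vehicle and WT AA libraries had deviations in the proximal tubule correlated by -0.0345, 0.251 and 0.187, so the numbers do not pair them, and not every library correlated best with its own number. With the replicate block 1 of 35 tests of a member passed (Lcn2 in the distal convoluted tubule, where 0.191% of genes were called), and the proximal tubule log2 fold changes of Havcr1 and Krt20 were 2.06 and 2.62. Signs of single genes in the proximal tubule also turned, and none of the values that turned passed. Havcr1 was 0.17 with at most 20% mitochondrial UMIs and -0.69 to 3.16 over libraries left out, and Krt20 was -1.87 to 4.29. Lcn2 was -0.34 with doublets kept and -0.14 (without WT AA 3) to 2.11 over libraries left out. With Y-linked libraries alone Clu and Krt8 were -0.28 and -0.035, with sex as a covariate -0.29 and -0.054, and both alternatives were chosen after seeing the data. Without the 2 libraries whose Zfyve9 goes against the label, also chosen after seeing the data, Krt8 and Krt18 were -0.037 and -0.027. Over libraries left out Clu ranged from -0.29 to 2.96, Krt8 from -0.055 to 0.25 and Krt18 from -0.28 to 1.41. The cause was not tested. The WT difference in the share of Havcr1 ranged from -0.0553 to 1.46 points. The difference in the share of proximal tubule cells over both genotypes, -25.1 points (exact permutation p = 0.127), ranged from -31.6 to -18.2 and passed without WT AA 2 (-30.7 points, exact permutation p = 0.0357). Without thinning 5 members passed in Havcr1-positive cells. Krt8 in S3 over convoluted cells was -0.10 without WT vehicle 2. Of the other results, 182 summary values and 206 values of single genes kept their direction and side of the threshold, whereas 25 and 0 moved, 2 and 21 turned direction and 1 and 3 passed where the reported value did not. Few S3, distal and principal cells per library limit what could be seen there. Shares of Havcr1 near 0.2% are close to its highest share in T and NK cells (0.189%, in WT AA 3).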

Other observations

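Outside the tubule, Lcn2 was highest in neutrophils, which store NGAL in granules, at 1633, 8164 and 1519 CPM in WT vehicle, 824 and 7525 CPM in SARATg vehicle, 2857, 1326 and 1266 CPM in WT AA and 4957 CPM in SARATg AA, with no order by treatment. Vcam1 in endothelial cells was at 114, 145 and 520 CPM in WT vehicle and 76.6 and 97.5 CPM in SARATg vehicle. It was at 317 and 36.2 CPM in WT AA 1 and 2 (WT AA 3 had 1 endothelial cell) and at 376 CPM in SARATg AA. The endothelial level of Vcam1 was thus highest in the library labelled WT vehicle 3, whereas its proximal tubule level was highest in WT AA 3, and this was not tested. Vcam1 in macrophages was at 20.1 to 227 CPM in WT vehicle, 18.9 to 179 CPM in WT AA, 9.50 to 19.3 CPM in SARATg vehicle and 81.6 CPM in SARATg AA. Proximal tubule cells made up 52.0% ± 30.6 of cells in WT vehicle and 18.8% ± 13.9 in WT AA (SD, n = 3 each, exact two-sided permutation test, p = 0.2), with 69.9%, 69.3% and 16.6% in WT vehicle libraries 1 to 3.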
